A study of Mus musculus with 6 samples.

Results

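The miRNAs miR-192, miR-194 and miR-215 were described in 1 small RNA library of mouse liver. Members were all mouse entries of the deposited count table whose names start with miR-192, miR-194 or miR-215, every arm included. This gave 7 distinct sequences among 1963 distinct mouse sequences. They were mmu-miR-192-5p, mmu-miR-192-3p, mmu-miR-194-5p, mmu-miR-194-2-3p, mmu-miR-194-1-3p, mmu-miR-215-5p and mmu-miR-215-3p, written below without the prefix of the species. Of these 7, 6 had at least 1 read and 4 had at least 10. The mice had received AAV9, an adeno-associated virus vector used for gene delivery. Its label names Tnnt2, the gene of cardiac troponin T whose promoter is used to drive genes in heart muscle cells, Cre recombinase and an element miR122. The labels used here do not say what the miR122 element is, nor the strain, age, dose or time. The stated question was the effect of this vector on liver miRNAs. The labels name 3 Cre-miR122 and 3 Cre libraries. Counts of Cre-miR122 replicate 2 alone were analysed, so no group comparison was possible, and there is no replicate behind any value below.

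A miRNA is cut from a hairpin precursor whose strands give a 5p and a 3p arm, and its seed, bases 2 to 8, pairs with target mRNAs. Mammals carry miR-192 and miR-194 side by side in 1 cluster and miR-194 and miR-215 side by side in another, so miR-194-5p has 2 source hairpins. miR-192 and miR-194 are known as abundant miRNAs of liver, intestine and kidney. In human cells the tumour suppressor p53 activates members of both clusters.

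The mature sequences are shown because they define the seed families and show which reads can be assigned to 1 gene. They are given 5′ to 3′, with the seed in capitals, from RefSeq on GRCm38.p6, which held 7 of the 7 members with the same letters as the count table.
miR-192-5p: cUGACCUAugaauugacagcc
miR-215-5p: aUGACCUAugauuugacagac
miR-194-5p: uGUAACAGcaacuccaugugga
miR-194-2-3p: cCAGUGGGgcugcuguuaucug
miR-194-1-3p: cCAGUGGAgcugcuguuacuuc
miR-192-3p: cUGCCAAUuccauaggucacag
miR-215-3p: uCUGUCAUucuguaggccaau
miR-192-5p and miR-215-5p share the seed UGACCUA and no other mouse sequence in the table has it. They were identical at 18 of 21 bases and differed by C1A, A12U and C20A, where the first letter is miR-192-5p, the last is miR-215-5p, and positions count from 1 at the 5′ end. No other mouse sequence had the seed of miR-194-5p. The 3p arms of the miR-194 copies were identical at 18 of 22 bases, and G8A (miR-194-2-3p first) lies in the seed.

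On GRCm38, the same assembly as mm10, Mir194-2 lies at chr19:6264643-6264728 and Mir192 at chr19:6264844-6264932, both on the plus strand. They are 115 bp apart and in no other annotated gene of GENCODE M21. The nearest coding gene before them is Atg2a, an autophagy gene, which ends 2307 bp before Mir194-2. Mir194-1 lies at chr1:185313319-185313385 and Mir215 at chr1:185313581-185313692, also on the plus strand and 195 bp apart. On that strand the noncoding gene 2010103J01Rik holds Mir194-1 in an intron and Mir215 in an exon. On the other strand both lie in an intron of Iars2, which encodes the mitochondrial isoleucyl-tRNA synthetase.

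The hairpins of the miR-194 copies show how reads can be told apart. The mature arms are in capitals.
Mir194-2: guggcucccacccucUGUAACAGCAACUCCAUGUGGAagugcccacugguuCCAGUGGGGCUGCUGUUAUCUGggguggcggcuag
Mir194-1: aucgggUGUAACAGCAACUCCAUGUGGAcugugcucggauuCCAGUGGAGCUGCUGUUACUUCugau
The 5p arms are identical, so a read that lies within the arm has no single source. The first base after the 5p arm differs between the hairpins, so a read that extends 1 nt past the arm's 3′ end matches only 1 of them.

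The library held 6661069 reads over mouse sequences, of 8163802 reads over all distinct sequences of the table. The table lists many species, and a read that ends 1 base earlier or later than the mouse entry is often counted for another species' entry of the same miRNA. Values "with end variants" add reads of such entries where the sequence lies inside the mouse hairpin, and their total is 8032202 reads. Intervals in parentheses are exact 95% intervals that cover counting error of reads only. PCR copies count as separate reads, and adapters join some small RNAs better than others, so ratios of reads are not ratios of molecules. The hepatocyte marker miR-122-5p held 3.54% and miR-148a-3p 57.9% of mouse reads, and with end variants these shares were 8.53% and 48.3%. Whether the miR122 element of the vector changed the reads of miR-122-5p could not be tested, as no Cre library was analysed. The 5 striated muscle markers together held 15.8% (15.7 to 15.8), from miR-1a-3p with 980271 reads down to miR-208a-3p with 0. The part of other tissue in the values below was not tested.

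Together the members held 76288 reads, 1.15% of mouse reads (1.14 to 1.15), or 1.26% with end variants (1.25 to 1.27). Nearly all of it was miR-192-5p and miR-194-5p. miR-192-5p had 72085 reads, 1.08% of mouse reads (1.07 to 1.09), and 82278 with end variants. miR-194-5p had 4017 reads, 0.0603% (0.0585 to 0.0622), and 18596 with end variants, which is 0.232% of that total (0.228 to 0.235). The remaining 5 members had between 0 and 168 reads.

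miR-194-2-3p, the 3p arm of the copy beside miR-192, had 168 reads and 194 with end variants. miR-215-5p, which shares the seed of miR-192-5p, had 16 reads, 0.00024% of mouse reads (0.000137 to 0.00039). Single reads were counted for miR-192-3p and for miR-194-1-3p, and 0 reads for miR-215-3p. For a count of 0 the exact interval reaches up to 5.54e-05% of mouse reads, and the floor of 3 reads is 4.5e-05%. The order of these low members below miR-215-5p cannot be read from 0 and 1.

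**Figure D1:**
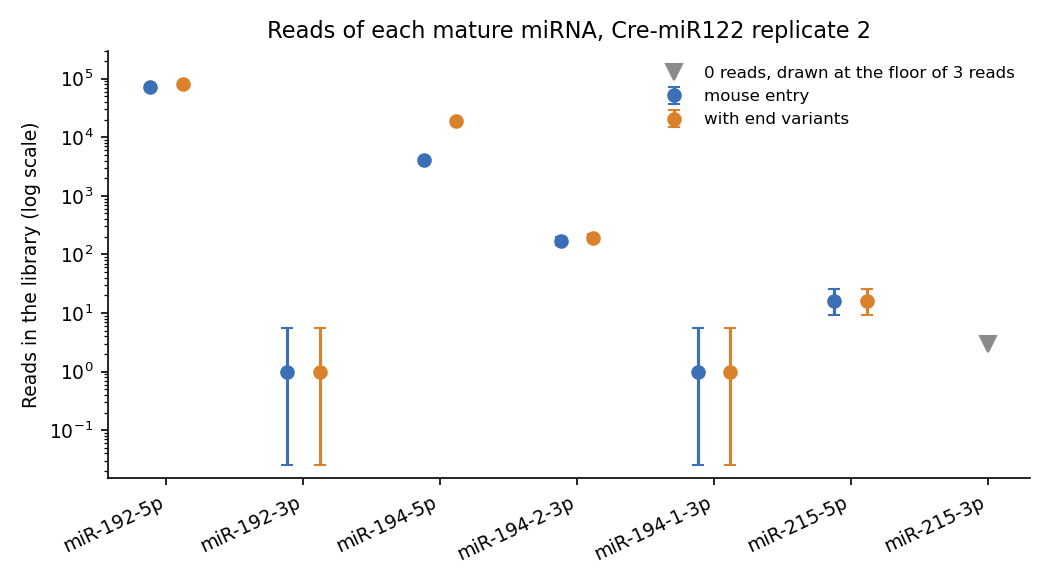
Reads of each of the 7 mature miRNAs in the library on a log axis, by the mouse entry (blue) and with end variants (orange), with exact 95% Poisson intervals of the counts. miR-192-5p and miR-194-5p lie at 4017 reads or more by both counts, and the other members at 194 reads or fewer. miR-215-3p, with 0 reads, is drawn as a grey triangle at the floor of 3 reads.

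miR-192-5p stood at rank 10 among mouse sequences by the mouse entry and at rank 15 with end variants. By the mouse entry its neighbours were miR-26a-5p with 78540 reads and miR-206-3p with 68854. Both neighbours differed from it beyond counting error, at 1.09 (1.08 to 1.10) and 1.05 (1.04 to 1.06) reads of the higher per read of the lower. miR-194-5p stood at rank 36 by the mouse entry, between miR-146a-5p with 4090 reads and let-7b-5p with 3857, and the intervals of both ratios included 1. With end variants it moved to rank 26, between miR-100-5p with 24537 reads and miR-26b-5p with 12152. miR-194-2-3p and miR-215-5p, at ranks 140 and 277 by the mouse entry, also did not differ from their neighbours beyond counting error.

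**Figure D2:**
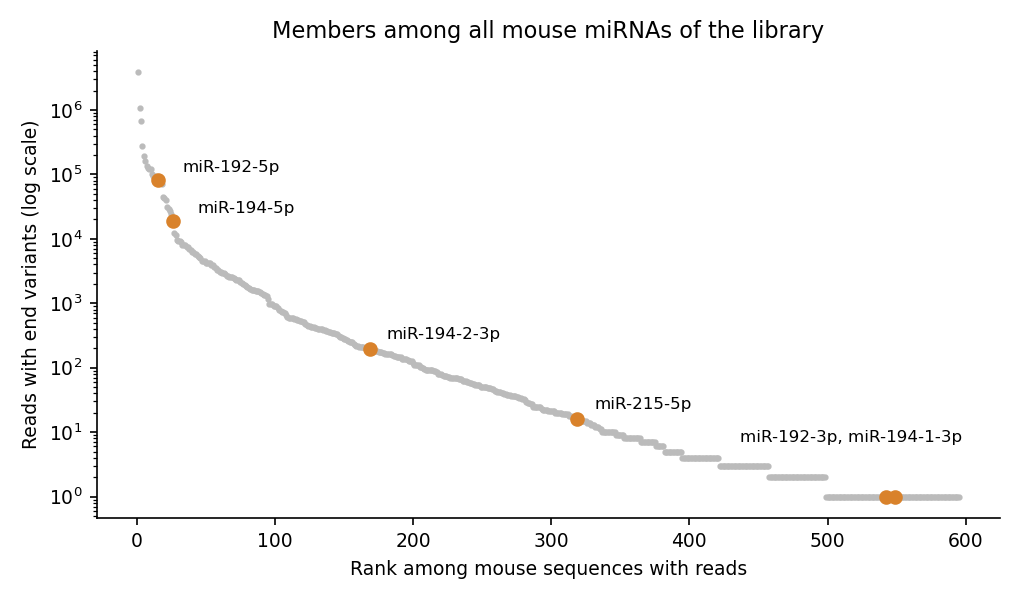
Reads with end variants (log axis) against rank for all mouse sequences with reads, with members in orange. The order among tied sequences is arbitrary. miR-192-5p is at rank 15 and miR-194-5p at rank 26, while the single-read members lie at the bottom of the scale.

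Each of the 3 features that separate the clusters and had more than 1 read in sum had far more reads from the Mir194-2 and Mir192 side. miR-192-5p had 4505 reads per read of miR-215-5p (2774 to 7883), and 5142 with end variants (3166 to 8997). The table has 4 entries inside the hairpin for the miR-192-5p arm and 1 for the miR-215-5p arm, so counting end variants could only raise this ratio. Mouse entries found only in the Mir194-2 and Mir192 cluster, namely miR-192-5p, miR-192-3p and miR-194-2-3p, had 72254 reads. Of these, 72085 were miR-192-5p. Mouse entries found only in the Mir194-1 and Mir215 cluster had 17 reads, of which 16 were miR-215-5p. The ratio of these sums was 4250 (2654 to 7296), and it rests almost wholly on miR-192-5p and miR-215-5p. Adding the 23-nt forms of miR-194-5p that match 1 hairpin, described next, gave 73423 and 36 reads and a ratio of 2040 (1473 to 2912).

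The miR-194 hairpins themselves differed in the same direction. On the 3p arm, with end variants, 194 reads matched Mir194-2 and 1 matched Mir194-1, a ratio of 194 (34.4 to 7702). The lower count is a single read, so the size of the ratio is known only within that interval. Entries inside the hairpin number 4 for the miR-194-2-3p arm and 1 for the miR-194-1-3p arm. Counting end variants could therefore only raise this ratio, which was 168 (29.7 to 6675) by mouse entries. On the 5p arm the 23-nt forms are shown here, with the last base in capitals, because the hairpins differ there.
Mir194-2 form: uguaacagcaacuccauguggaA
Mir194-1 form: uguaacagcaacuccauguggaC
form in neither hairpin: uguaacagcaacuccauguggaU
The form that matches Mir194-2 had 1169 reads. The form that matches Mir194-1, A23C against it, had 19. This is 61.5 reads per read (39.2 to 103). The form in neither hairpin, A23U, had 394 reads, more than the Mir194-1 form, so a last base need not come from the hairpin and each form can hold reads with an added base. A 23-nt entry ending in G is not among those of the table.

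As shares, the Mir194-1 form was 1.60% (0.966 to 2.49) of the 1188 23-nt reads that match 1 hairpin. Mir194-1 gave 0.513% (0.013 to 2.82) of the 195 reads on the 3p arm. miR-215-5p was 0.0194% (0.0111 to 0.0316) of the reads of miR-192-5p and miR-215-5p together, with end variants. The first and second shares overlap in their intervals and the third lies below the first. The 21-nt and 22-nt forms, with 13363 and 4017 reads, are the bulk of miR-194-5p and have no single source.

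**Figure D3:**
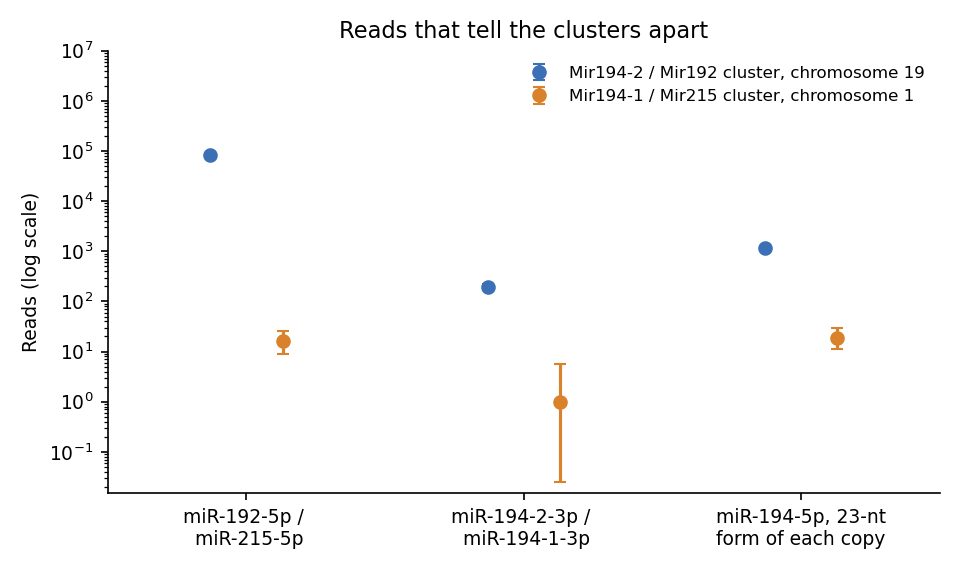
Reads (log axis) of 3 features that separate the cluster on chromosome 19 (blue) from that on chromosome 1 (orange), with exact 95% Poisson intervals. From left to right the counts are 82278 and 16, 194 and 1, and 1169 and 19.

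Other mouse miRNAs with 2 named copies give a measure of how unequal copies were in this library. Of 25 pairs of copy-specific arms, 7 had at least 20 reads with end variants in sum, miR-194 3p among them. Among these 7 the reads of the higher copy per read of the lower ranged from 1.70 for miR-181a 3p to 194 for miR-194 3p. The interval of miR-194 overlapped those of miR-125b 3p, at 73.5 (19.99 to 613), and miR-16 3p, at 12.5 (3.12 to 109). It lay above those of miR-30c, miR-24, miR-26a and miR-181a. By mouse entries the interval of miR-194 began at 29.7, inside the end-variant interval of miR-30c (18.96 to 30.7). The separation from miR-30c thus depends on which entries are listed.

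**Figure D4:**
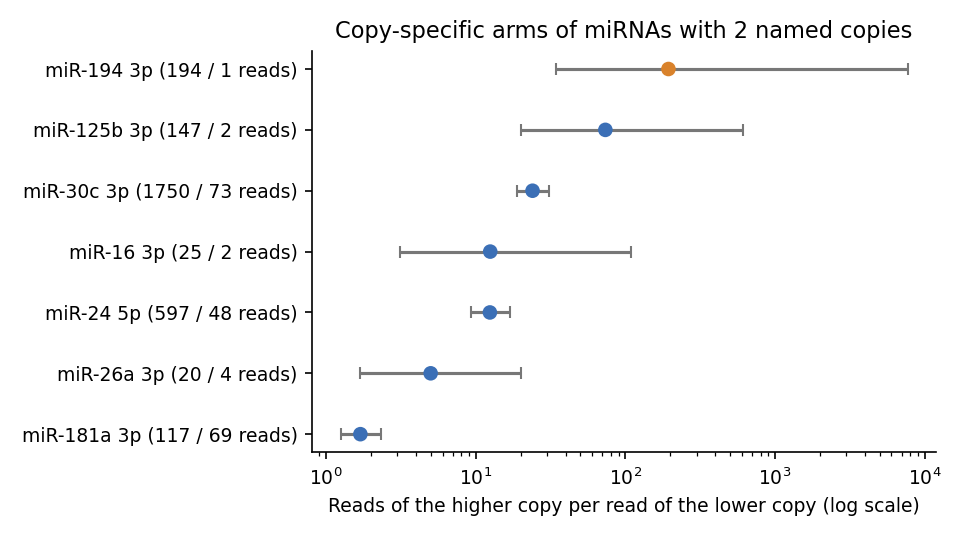
Reads of the higher copy per read of the lower copy (log axis) for the 7 miRNAs whose copy-specific arms had at least 20 reads, with exact 95% intervals and the read counts in the labels. miR-194 (orange) is at 194, with an interval that reaches down to 34.4.

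The ratio of miR-194-5p to miR-192-5p depended on the counting of end forms. By mouse entries there were 0.0557 reads of miR-194-5p per read of miR-192-5p (0.0540 to 0.0575). With end variants there were 0.226 (0.222 to 0.230). miR-192-5p was the higher in both.

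The counted end forms of both 5p arms are given next. On the miR-194-5p arm the mouse entry of 22 nt held 21.6% of reads (21.01 to 22.2). A 21-nt form, 1 base shorter, held 13363 reads or 71.9% (71.2 to 72.5), and the Mir194-2 form of 23 nt held 6.29%. On the miR-192-5p arm the 21-nt mouse entry held 87.6% (87.4 to 87.8). A 22-nt form, 1 base longer, held 8620 reads or 10.5% (10.3 to 10.7). Among the listed forms 21 nt was the most frequent length on both arms. The table lists no form of miR-192-5p that ends before the mouse entry, so shorter reads of that arm could not be counted, and the shares depend on which forms are listed. Among the 28 arms of this library with at least 10000 reads, the mouse entry held a median of 77.1%. miR-194-5p had the seventh lowest value of the 28 and miR-192-5p the seventh highest.

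**Figure D5:**
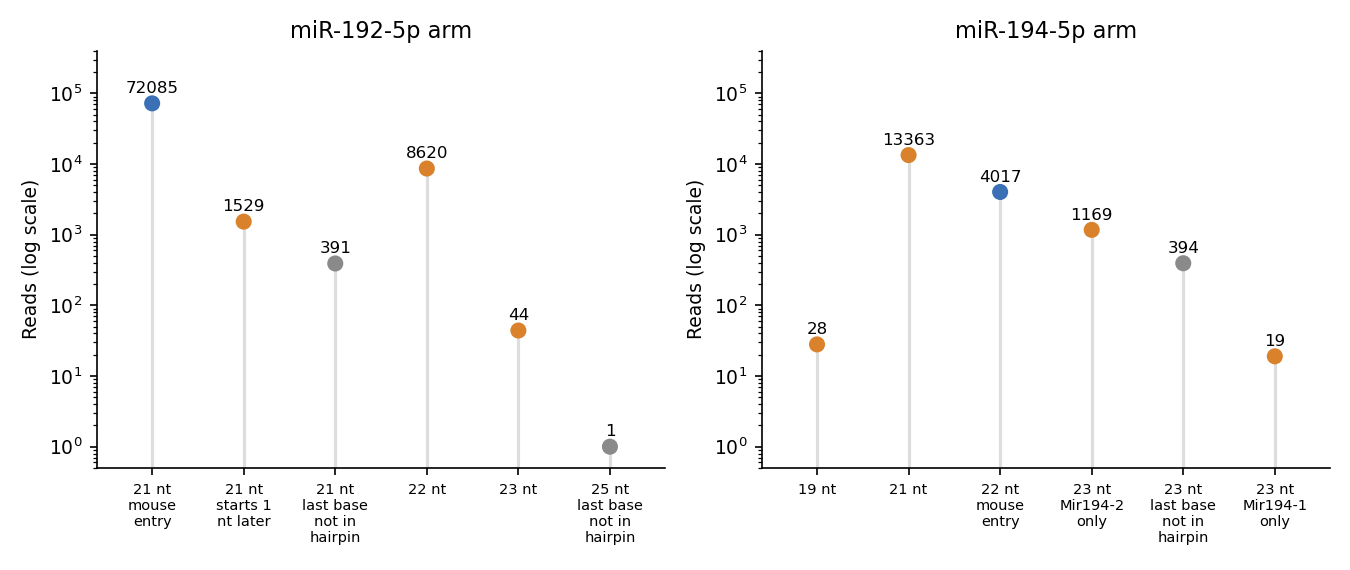
Reads (log axis) of each form of the miR-192-5p and miR-194-5p arms, by length. Blue marks the mouse entry, orange the other forms inside the mouse hairpin and grey the forms whose last base is not in the hairpin. The mouse entry is the highest form for miR-192-5p with 72085 reads, and the 21-nt form with 13363 is the highest for miR-194-5p.

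A start 1 base later changes the seed. The table has 1 entry of this kind for miR-192-5p, shown with its own seed in capitals beside the 22-nt form that has the same last base.
22 nt: cUGACCUAugaauugacagcca
start 1 nt later: uGACCUAUgaauugacagcca
The later start had 1529 reads, 1.86% of the arm (1.77 to 1.95). Of the 10149 reads that end at that base, it made up 15.1% (14.4 to 15.8). No mouse entry of the table has the seed GACCUAU. The remaining 98.1% of the counted reads of the arm (98.0 to 98.2) began at the first base of the mouse entry. No entry with a later start ends at the last base of the mouse entry, so such reads could not be counted. The 1.86% and 98.1% therefore depend on which forms are listed. Among the same 28 arms, 12 have an entry with another start, and of these 3 (miR-133a-3p, miR-10a-5p and miR-126a-3p) had a higher share of other starts than miR-192-5p. Those 3 have 3, 3 and 4 such entries against 1 for miR-192-5p, so the ranking depends on the entries listed. The 12 had a median of 0.0313%, from 0 to 44.9%. For miR-194-5p all 5 entries inside the hairpin begin at the same base, so a later or earlier start would not have been seen. For miR-194-2-3p an entry that starts 1 nt later had 0 reads.

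By seed, and over all members with end variants, UGACCUA made up 79.9% of counted reads, GUAACAG of miR-194-5p 18.4% and GACCUAU 1.51%. The seed CAGUGGG of miR-194-2-3p made up 0.192%. Of the 80765 reads with the seed UGACCUA, 16 were miR-215-5p.

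The 5p arms of miR-192 and miR-194 had more reads than the 3p arms, and for miR-215 the counts were 16 and 0. With end variants miR-192-5p had 82278 reads and miR-192-3p had 1, an interval of 14767 to 3249850 reads of 5p per read of 3p. miR-194-5p had 95.4 reads per read of all miR-194 3p (82.8 to 110). By mouse entries the miR-194 ratio was 23.8 (20.4 to 27.9). Over 98 hairpin pairs of arms with at least 1000 reads on the major arm, the median was 310 reads of the major arm per read of the minor arm, with minor arms under 3 reads set to 3. The miR-192 hairpin was above this median. Taking all of miR-194-5p for either copy, the Mir194-2 pair was below it at 95.9 (83.2 to 111) and the Mir194-1 pair above it at 6199. Any 5p reads that came from the other copy would lower each value. The Mir194-2 pair thus lay below the median for any split of the 5p reads, and the Mir194-1 pair cannot be placed. In 23 of the 98 pairs the minor arm had at most 3 reads. Between the neighbouring hairpins, miR-194-2-3p had 168 mouse-entry reads against 1 of miR-192-3p, although miR-192-5p had more reads than miR-194-5p.

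Lists of other miRNAs place these levels. Of all 1963 mouse sequences, 546 had mouse-entry reads, and 9 had more than miR-192-5p and 35 more than miR-194-5p. With end variants 14 and 25 were higher. Most mouse sequences thus lay below both, so a list that lies below them is not set apart by it. The hepatocyte list was miR-122-5p, miR-148a-3p, miR-101a-3p, miR-101b-3p, miR-22-3p, miR-378a-3p, miR-30a-5p and miR-21a-5p. Whether their reads came from hepatocytes was not tested. Of these 8, 6 had fewer mouse-entry reads than miR-192-5p and 3 fewer than miR-194-5p. With end variants these numbers were 4 and 3. The median of that list was 20550.5 mouse-entry reads. Of 8 miRNAs of epithelia, among them the miR-200 family of epithelial cells, all 8 were below both by either count. The highest of them was miR-200b-3p with 1425 reads, or 5791 with end variants. The median of the epithelial list was 171.5 reads, and miR-141-3p had 0 by the mouse entry. A list of 8 mature sequences of genes reported to be activated by p53 holds both arms of miR-34b and of miR-34c. These arms of miR-34b and miR-34c had 0 to 84 mouse-entry reads. Of the 8, 7 were below miR-192-5p and miR-194-5p by either count. miR-143-3p, a miRNA of smooth muscle and mesenchymal cells, was the exception with 135826 reads. miR-34a-5p, the best known p53-activated miRNA, had 92 reads, or 157 with end variants. miR-215-5p, with 16 reads, was below 7 of the 8 epithelial miRNAs with end variants counted. By that count 316 of the 1963 mouse sequences had more reads than miR-215-5p.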

How the data were processed

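Small RNA libraries were made from total RNA of mouse liver by ligating adapters to both ends, then amplified and sequenced as single reads, per the labels' protocols. The deposited table holds raw counts per entry of a mature miRNA list for 1 cleaned library, per the file headers, matched by column name to Cre-miR122 replicate 2. The remaining 5 libraries were not analysed here. The build mm10 is named by the submitters' processing notes. Sources used here do not give the counting program or its settings. Of 48885 entries, those with an identical sequence had equal counts (0 exceptions), and each distinct sequence was used once. Of 1726 pairs with reads in which 1 entry extends another by at most 5 nt at its 3′ end, the longer had more reads in 809, so shorter entries do not hold all reads of longer ones.

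An entry of another species was an end variant if, at each place in GENCODE M21 hairpins, its largest overlap, of 15 nt or more, was with the same mouse sequence. Shares have Clopper-Pearson intervals. Ratios have exact binomial intervals conditional on the sum of both counts. Both were run on simulated counts drawn under the sampling model they assume, without PCR copies or adapter preference, so those sources of error were not tested. The share of all members, ratios between them and end forms were recomputed with other totals, filters, end forms and overlaps. The named miRNAs were all members, their neighbours in rank, the listed miRNAs and the arms and copy pairs passing the stated minimum. Members and lists were chosen with earlier results of these data known. Software was SciPy 1.17.1, NumPy 2.4.6, pandas 2.3.3, matplotlib 3.10.9 and Biopython 1.88 under Python 3.11.15.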

Additional observations from a re-analysis of the deposited data

Results flagged for a closer look

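Reads counted for entries outside the mouse list were data outside the main measurement, and with no control library they were set against the floor of 3 reads. On the miR-192-5p arm 10193 such reads lay inside the mouse hairpin, and 14579 did on the miR-194-5p arm. On the miR-194-2-3p arm there were 26. Forms with another base at the 3′ end had 392 reads for miR-192-5p, of which 391 were C21U. For miR-194-5p they had 394 reads, all of the 23-nt form ending in U. For miR-215-5p there were 5, of a 22-nt form with a last base that is not in the Mir215 hairpin, beside 16 of the mouse entry.

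An entry that differs from miR-192-5p by C1A had 44 reads, 0.061% of those of miR-192-5p and more than the 16 of miR-215-5p. An entry with C1A and C20A, which carries 2 of the 3 differences between miR-192-5p and miR-215-5p, had 0 reads.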

How the results depend on the processing

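Of 36 recomputed values of 11 results, 20 stayed within the interval of the value reported and 16 moved beyond it. None changed which of a pair of miRNAs was higher. The share of all members, 1.15% of mouse reads, was 1.26% with end variants, 1.25% with end variants of the same first base and 1.25% when forms whose last 1 or 2 bases are not in the hairpin were added. It was 0.934% of all sequences of the table, 1.19% without miR-122 features, 1.36% without the striated muscle miRNAs and 2.72% without miR-148a-3p. Each alternative changes the reads counted or the total they are divided by. The ratio of miR-194-5p to miR-192-5p, 0.0557, was 0.226 with end variants, 0.230 with those of the same first base, 0.230 with other 3′ bases and 0.185 by the most abundant form of each arm, the last chosen after seeing the data. The ratio of miR-194-5p to its 3p reads, 23.8, was 95.4 under both end-variant counts and 97.4 with other 3′ bases. The ratio of reads particular to each cluster, 4250, was 2040 with the 23-nt miR-194-5p forms that match 1 hairpin, also chosen after seeing the data. The mouse-entry share of the miR-192-5p arm was 87.2% with other 3′ bases. Depth limits miR-192-3p, miR-194-1-3p, miR-215-5p and miR-215-3p, whose ratios rest on 0 to 16 reads. No paired analysis was possible because counts of a single library were used and no replicate number occurs in both groups.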

Other observations

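A base added to the mouse sequence that no hairpin holds was counted for several miRNAs. Entries with an added U had 11498 reads over 13 of 16 entries, and entries with an added A had 8270 over 5 of 6, of which 8026 were miR-99a-5p. Entries with an added C had 35 reads over 5 of 9. For miR-194-5p the added U made up 8.93% (8.11 to 9.81) of its reads and those of the mouse entry, within a range from 0.182% for miR-148a-3p to 54.1% for miR-101a-3p over the 6 miRNAs, miR-194-5p included, with such an entry and at least 1000 mouse-entry reads.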
